A study of Mus musculus with 11 samples.

Results

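The gamma-glutamyl cycle and the synthesis of glutathione were followed through 10 genes, *Gclc*, *Gclm*, *Gss*, *Gsr*, *Chac1*, *Chac2*, *Ggt1*, *Ggt6*, *Ggt7* and *Oplah*, out of 24849 genes in the deposited count table. They were chosen by function and found by gene name. Each had 1 entry in the table, and all 10 passed edgeR's filter for low counts in every comparison. Polyadenylated RNA was sequenced from 11 libraries of AML12, an immortal mouse liver line derived from hepatocytes of a mouse that carried a human TGF-alpha transgene, so that all groups share this allele. TXNDC5, the protein edited in this study, is a protein disulfide isomerase of the endoplasmic reticulum. The 4 KO libraries came from cells in which *Txndc5* had been cut with CRISPR/Cas9 and joined to a puromycin resistance gene, after which resistant cells were selected. The labels call this genotype a knockdown, whereas the study calls it a knockout, and whether the libraries come from 1 clone is not given in the sources used here. The 4 KI libraries came from cells that carried an overexpression construct for TXNDC5 at the ROSA26 locus, and the 3 WT libraries from unedited cells. Replicates were numbered 5 to 8 in the KO and KI cells, and 5-6 (a single library), 7 and 8 in the WT cells.

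Glutathione is a tripeptide of glutamate, cysteine and glycine and the main small thiol of hepatocytes. Glutamate-cysteine ligase, made of a catalytic subunit (GCLC) and a modifier subunit (GCLM), joins the first pair of amino acids and limits the rate of synthesis, and glutathione synthetase (GSS) adds glycine. Glutathione reductase (GSR) returns oxidized glutathione to its reduced form with NADPH. Breakdown takes separate routes. CHAC1 and CHAC2 cleave glutathione in the cytosol and release 5-oxoproline, gamma-glutamyltransferases act at the cell surface, and 5-oxoprolinase (OPLAH) opens 5-oxoproline to glutamate and so closes the cycle.

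Total counts per library were 30380360 to 38422243 in the KO, 29840366 to 30364098 in the WT and 32360709 to 35335070 in the KI cells. Levels are given in CPM, the counts of a gene relative to the library's total after scaling with edgeR's TMM method. Differences are log2 fold changes with standard errors (SE), and p-values, adjusted by the Benjamini-Hochberg method over all genes tested, come from the quasi-likelihood test of edgeR. A gene was called when this value was under 0.05. The labels do not say whether the libraries of a group came from separate cultures, so the p-values measure the spread between these libraries only, which may be technical. In RNA of whole cultures, fewer cells that express a gene and less of its RNA per cell cannot be told apart. The edited gene itself, *Txndc5*, was counted 364, 287, 430 and 408 times in KO cells, 3299, 3429 and 4046 times in WT cells and 5654, 6511, 6723 and 5344 times in KI cells. Its log2 fold change was -3.82 in KO against WT (adjusted p = 4.09e-08). The KI cells gave 0.24 against WT (SE 0.12, adjusted p = 0.1361), and although the KI libraries lay between 158 and 179 CPM and the WT libraries between 138 and 147 CPM without overlap, the difference was not called.

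Of the 10 genes, 7 were called in KO against WT, where 55.1% of the 13359 genes tested were called. *Chac1*, *Gss* and *Gclm* were higher and *Chac2*, *Ggt1*, *Ggt6* and *Oplah* were lower, beside 26.7% of all tested genes called higher and 28.4% called lower. The comparison of KI with WT called 6 of the 10, and 42.3% of the 13534 genes tested. *Gclm*, *Gsr* and *Ggt7* were higher and *Chac2*, *Ggt6* and *Oplah* lower, beside 21.2% and 21% of all genes. All 10 were called in KO against KI, 4 higher and 6 lower in the KO cells, where 54% of the 13269 genes tested were called, 27% in each direction. The libraries of the 2 groups did not overlap for 8 of the 10 genes in KO against WT, for 6 in KI against WT and for 8 in KO against KI, beside 55.3%, 44.7% and 48.6% of all genes tested. With shares this high among all genes, the numbers called among the 10 are counts only and set these genes apart from no others. The median log2 fold change of the 10 genes was -0.06 in KO against WT, beside -0.03 over all genes tested, -0.09 in KI against WT, beside -0.02, and -0.33 in KO against KI, beside 0.00084. The KO and KI cells were compared with the same 3 WT libraries, so these sets of values are not independent.

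**Figure D1:**
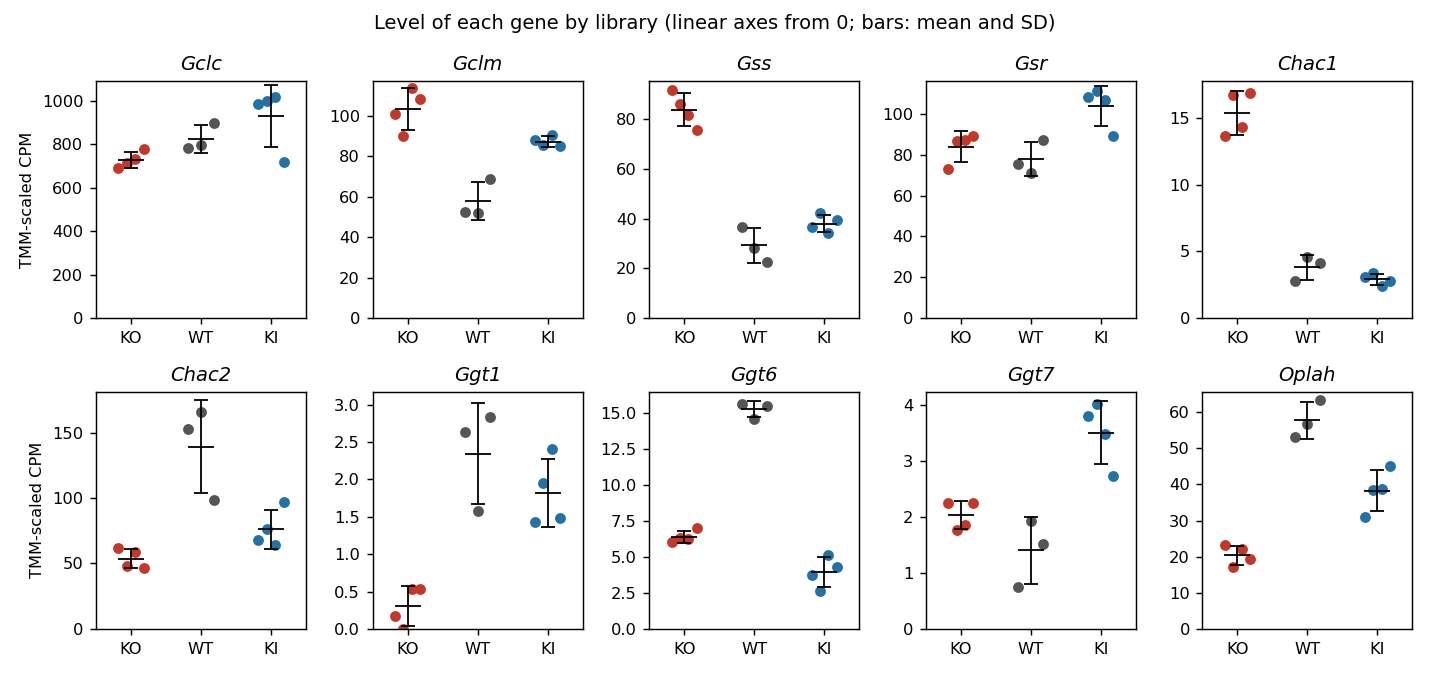
TMM-scaled CPM (vertical axes, linear and starting at 0) of the 10 genes in the KO (red), WT (grey) and KI (blue) libraries; each point is 1 library, and the bars give the mean and SD of the group. *Chac1* and *Gss* were highest in all 4 KO libraries, *Ggt6*, *Oplah* and *Chac2* were highest in all 3 WT libraries, and *Gsr* and *Ggt7* reached their highest levels in the KI cells.

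**Figure D2:**
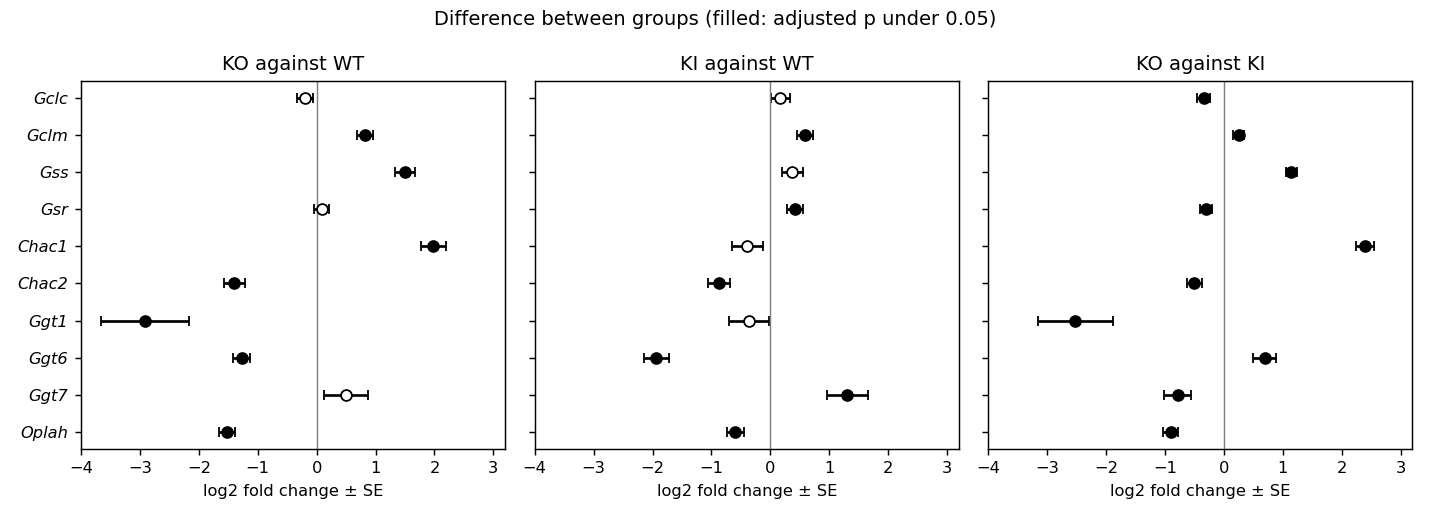
Log2 fold changes (horizontal axes) with SE bars for the 10 genes in KO against WT, KI against WT and KO against KI; filled points had an adjusted p under 0.05 (edgeR). *Gclm* lies above 0 and *Chac2* and *Oplah* below 0 in all 3 panels, whereas *Chac1* lies at 1.98, -0.39 and 2.40.

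*Gclc* (chr9:77754535-77794485 in GRCm38, plus strand) encodes the catalytic subunit of glutamate-cysteine ligase and was by far the most abundant transcript of the 10. Its level was 693, 715, 731 and 780 CPM in the KO libraries, 781, 797 and 899 in the WT and 984, 1001, 1018 and 720 in the KI. All KO libraries lay just below all WT libraries, and KI library 8 lay below every WT library while the other 3 KI libraries lay above them. It changed by -0.20 on the log2 scale (SE 0.13, adjusted p = 0.2101) in KO against WT and 0.17 (adjusted p = 0.4223) in KI against WT, neither of them called. DESeq2 called the difference in KO against WT (-0.22, adjusted p = 0.04418). With library totals this difference changed sign (0.21, adjusted p = 0.2503), and KI against WT was called (0.49, adjusted p = 0.04043). KO against KI gave -0.35 (adjusted p = 0.01447), with overlap of the groups through KI library 8, and this call was lost with library totals in place of TMM scaling (-0.29, adjusted p = 0.05104).

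*Gclm* (chr3:122245557-122270732, plus strand), the gene of the modifier subunit, moved differently. It stood at 101, 90.1, 114 and 108 CPM in the KO libraries, 52.6, 52.0 and 68.8 in the WT and 88.1, 85.4, 90.5 and 84.9 in the KI. Every library of either edited line was above every WT library. The log2 fold change was 0.82 (SE 0.14, adjusted p = 0.0005799) in KO against WT and 0.59 (SE 0.14, adjusted p = 0.004332) in KI against WT. The KO and KI libraries overlapped at about 90 CPM, and their difference of 0.25 (adjusted p = 0.02733) was lost in 4 of the 8 fits that left out 1 library, those without KO 7, KO 8, KI 5 or KI 6. *Gclm* shares 4.71% of its exon bases with *Gm17494* on the opposite strand and 3.88% with *Gm6061*, so that its reads there are uncertain.

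The ratio of the subunit transcripts was also taken within each library, where it does not depend on the scaling between libraries. Per kilobase of exon, *Gclc* exceeded *Gclm* 11.5, 13.2, 10.7 and 12.0 times in the KO libraries, 24.8, 25.6 and 21.8 times in the WT and 18.6, 19.6, 18.8 and 14.2 times in the KI. The 3 groups did not overlap, with the KO cells lowest and the WT cells highest. The means were 11.9 ± 1.07 in the KO (SD, n = 4), 24.1 ± 1.97 in the WT (SD, n = 3) and 17.8 ± 2.45 in the KI cells (SD, n = 4). On the log2 scale the ratio differed by -1.02 in KO against WT, -0.44 in KI against WT and -0.58 in KO against KI. Each of these 3 differences had p = 0.0286 in a two-sided exact permutation test over the libraries (0.0286 after Benjamini-Hochberg adjustment over the 3), which is the smallest p that these group sizes allow. The ratio was chosen with earlier results of these data known and is made of the same counts as the differences of its 2 genes, so this p is no independent support for them.

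**Figure D3:**
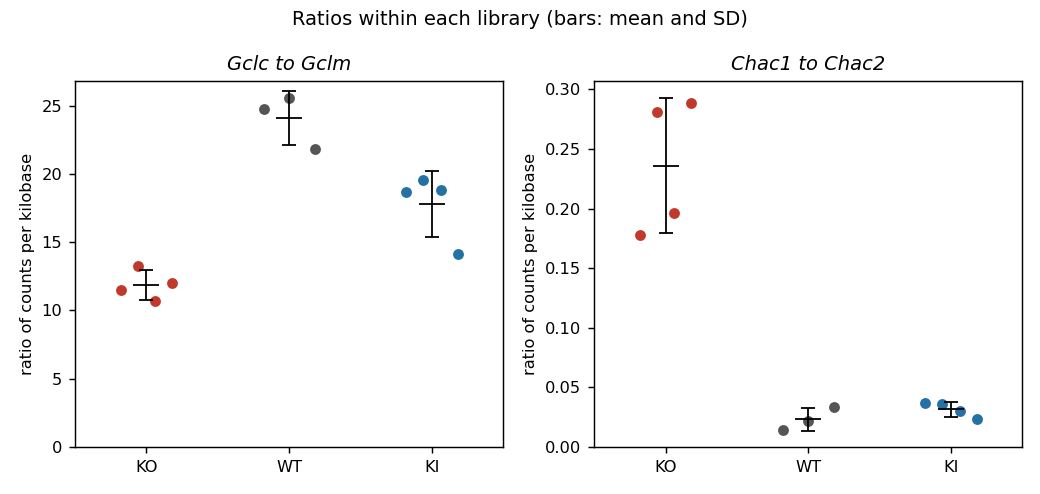
Ratio of counts per kilobase of *Gclc* to *Gclm* (left) and of *Chac1* to *Chac2* (right) within each library, on linear axes that start at 0; points are libraries, and bars give the mean and SD of the KO, WT and KI groups. The *Gclc* to *Gclm* ratio was 10.7 to 13.2 in the KO, 14.2 to 19.6 in the KI and 21.8 to 25.6 in the WT libraries, and the *Chac1* to *Chac2* ratio was 0.178 to 0.289 in the KO libraries and at most 0.0365 in the others.

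*Gclm* is known as a target of NRF2, the transcription factor that binds antioxidant response elements, so the sequence before its start is shown for the motif it holds. The 250 bases before the RefSeq start site (GRCm38.p6, chr3:122245307-122245556, plus strand) are given here from 5′ to 3′, and the capitals mark a match to the antioxidant response element core TGACNNNGC, read on the minus strand.
Gclm: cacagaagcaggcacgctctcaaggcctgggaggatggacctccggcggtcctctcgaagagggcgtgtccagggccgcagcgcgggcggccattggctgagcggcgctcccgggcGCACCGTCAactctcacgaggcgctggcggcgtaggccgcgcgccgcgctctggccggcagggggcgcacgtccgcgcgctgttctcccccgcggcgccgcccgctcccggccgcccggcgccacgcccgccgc
The match lies 134 to 126 bases before the start site. Both strands of the 300-base windows in RefSeq's table (250 bases before and 50 after each start) were searched, and this core was found in 12.4% of 32851 windows. It is a match of letters, and no binding was measured.

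*Gss* (chr2:155563181-155592810, minus strand) encodes glutathione synthetase, which adds glycine to complete glutathione. The KO libraries had 91.8, 86.0, 81.6 and 75.8 CPM, the WT libraries 36.8, 28.3 and 22.7 and the KI libraries 36.5, 42.1, 34.0 and 39.3. The KO libraries stood apart from all others, while the KI and WT ranges overlapped. The transcript rose in KO against WT, with a log2 fold change of 1.5 (SE 0.17, adjusted p = 3.048e-05), which is 2.83-fold, and in KO against KI by 1.15 (adjusted p = 1e-07). KI against WT gave 0.38 (SE 0.17, adjusted p = 0.09181), which was not called. This depended on the setting. The difference was called with library totals in place of TMM scaling (0.73, adjusted p = 0.002955) and with all 3 groups in 1 fit (0.38, adjusted p = 0.04782). It was also called without WT 5-6 (0.58, adjusted p = 0.01575). Relative to *Gclc*, counts of *Gss* per kilobase were 0.0618 to 0.0843 in the KO, 0.0161 to 0.03 in the WT and 0.0213 to 0.0348 in the KI libraries. *Gss* shares 6.68% of its exon bases with *Acss2*, an acetyl-CoA synthetase gene on the opposite strand, and 5.44% and 6.51% with *Gssos1* and *Gssos2*, also on the opposite strand, for which no counts were analysed here, and the library preparation described in the labels names no strand marking. Counts of *Acss2* were 1955, 1707, 1630 and 2021 in KO and 441, 340 and 406 in WT libraries, and it rose too, by 1.64 on the log2 scale (adjusted p = 1.008e-05). With TMM scaling and all libraries of these 2 groups, the KI cells showed no call against WT for *Gss* or *Acss2*. The difference of *Acss2* was -0.38 on the log2 scale (adjusted p = 0.09444). Reads on the shared bases cannot be told apart, and their part in the counts of *Gss* was not tested.

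*Gsr* (chr8:33652523-33698163, plus strand), the gene of glutathione reductase, had 72.9, 86.6, 87.4 and 89.2 CPM in the KO libraries, 75.6, 71.1 and 87.3 in the WT and 108, 111, 107 and 89.3 in the KI. The KO and WT libraries overlapped almost entirely, and the KI libraries lay above both, KI library 8 by a narrow margin. The log2 fold change in KO against WT was 0.09 (SE 0.12, adjusted p = 0.5753). Against WT, the KI cells gave 0.41 (SE 0.14, adjusted p = 0.02772), but this call was lost when WT 5-6, WT 7, KI 5, KI 6 or KI 7 was left out. KO against KI gave -0.30 (adjusted p = 0.01591), a call that was lost without KI 6 and with library totals (adjusted p = 0.07871).

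The genes of the cytosolic glutathione-cleaving enzymes moved in opposite directions in the KO cells. *Chac1* (chr2:119351229-119354381, plus strand), which is known to be induced by the stress transcription factor ATF4, reached counts of 486, 566, 477 and 732 in KO, 62, 113 and 117 in WT and 110, 124, 93 and 92 in KI libraries. In CPM these were 13.6, 16.8, 14.3 and 16.8 in the KO cells, 2.76, 4.56 and 4.14 in the WT and 3.08, 3.42, 2.43 and 2.80 in the KI. The lowest KO library was thus well above the highest of the others, and the KI libraries overlapped with the WT. This was a log2 fold change of 1.98 (SE 0.21, adjusted p = 2.157e-05) in KO against WT, or 3.95-fold, and of 2.40 (adjusted p = 5.747e-09) in KO against KI. KI against WT gave -0.39 (adjusted p = 0.2595), which was not called.

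*Chac2* (chr11:30976707-30986350, minus strand), which cleaves glutathione more slowly and is considered the constitutive enzyme, went the other way. It stood at 61.5, 47.9, 58.5 and 46.8 CPM in the KO libraries, 153, 166 and 98.8 in the WT and 67.8, 76.2, 63.9 and 97.3 in the KI. All WT libraries lay above all edited ones, although WT library 8 exceeded KI library 8 only slightly. The transcript fell by 1.40 on the log2 scale in KO against WT (SE 0.18, adjusted p = 9.733e-05). The log2 fold change in KI against WT was -0.87 (adjusted p = 0.003391), and in KO against KI -0.50 (adjusted p = 0.004321). As a description, counts of *Chac1* per kilobase were 0.178 to 0.289 of those of *Chac2* in the KO, 0.0145 to 0.0337 in the WT and 0.0231 to 0.0365 in the KI libraries. *Chac2* remained the more abundant of the pair per length in every library.

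The sequences before the 2 genes are shown because the genes moved in opposite directions in the KO cells. Each is the 250 bases before the RefSeq start site in GRCm38.p6, 5′ to 3′, from chr2:119350992-119351241 (plus strand) for *Chac1* and chr11:30986366-30986615 (minus strand) for *Chac2*. Capitals mark a match to TGATGNAA, the core of the C/EBP-ATF response element to which ATF4 binds, read on the minus strand.
Chac1: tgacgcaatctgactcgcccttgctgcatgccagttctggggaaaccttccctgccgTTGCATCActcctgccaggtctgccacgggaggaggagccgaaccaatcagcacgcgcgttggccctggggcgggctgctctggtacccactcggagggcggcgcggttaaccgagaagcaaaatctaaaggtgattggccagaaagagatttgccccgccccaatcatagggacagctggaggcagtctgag
Chac2: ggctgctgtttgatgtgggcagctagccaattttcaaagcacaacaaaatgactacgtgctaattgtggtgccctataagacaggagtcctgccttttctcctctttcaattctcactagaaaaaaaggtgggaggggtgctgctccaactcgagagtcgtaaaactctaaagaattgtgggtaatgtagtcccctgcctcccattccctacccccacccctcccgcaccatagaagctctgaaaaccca
The match of *Chac1* lies 193 to 186 bases before its start. TGATGNAA was found in 3.97% of the 32851 windows and, among the windows of the 10 genes, only in that of *Chac1*. No match to this core, to TGACNNNGC or to TGACGTCA, the cyclic AMP response element (1.79% of windows), was found in the window of *Chac2*, which says only that these letters are not in it. RefSeq's table gave 10 windows for 7 of the 10 genes. *Oplah*, *Gsr* and *Gclc* had none, and *Ggt1* had 4, of which 3 held TGACNNNGC and 1 of these also TGACGTCA.

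The 3 gamma-glutamyltransferase genes differed from each other. *Ggt1* (chr10:75561604-75586200, plus strand) encodes the main enzyme that cleaves glutathione at the outer surface of cells. Its counts were 6, 0, 18 and 23 in KO, 59, 39 and 80 in WT and 51, 71, 92 and 49 in KI libraries. The KO libraries were all below the others, and KI and WT overlapped. In CPM the mean was 0.309 ± 0.269 in the KO (SD, n = 4), 2.35 ± 0.676 in the WT (SD, n = 3) and 1.82 ± 0.456 in the KI cells (SD, n = 4). Its difference on the log2 scale was -2.91 in KO against WT, with a wide SE of 0.75 (adjusted p = 0.006759), and ranged from -3.32 to -2.51 when each library was left out. It was -2.52 (adjusted p = 0.003656) in KO against KI and -0.36 (adjusted p = 0.4151) in KI against WT.

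*Ggt6* (chr11:72435526-72438400, plus strand) and *Ggt7* (chr2:155490379-155518237, minus strand) encode relatives of this enzyme with less well known substrates. The level of *Ggt6* was 6.03, 6.34, 6.24 and 6.99 CPM in the KO libraries, 15.6, 14.6 and 15.5 in the WT and 3.78, 2.65, 5.15 and 4.32 in the KI. The 3 groups did not overlap, and the KI cells were lowest. On the log2 scale the difference was -1.27 (adjusted p = 3.683e-05) in KO against WT and -1.94 (SE 0.21, adjusted p = 2.295e-05) in KI against WT. *Ggt6* was the only one of the 10 genes that was called lower than WT in both edited lines and lower in the KI than in the KO cells (0.69 in KO against KI, adjusted p = 0.00842).

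*Ggt7* was counted 80, 60, 62 and 98 times in KO, 17, 48 and 43 times in WT and 136, 146, 133 and 90 times in KI libraries. In CPM the KI libraries, at 2.74 to 4.02, lay above all others, whereas the KO range of 1.78 to 2.25 overlapped with the WT range of 0.758 to 1.94. It rose in KI against WT, with a log2 fold change of 1.31 (SE 0.35, adjusted p = 0.008909). KO against WT gave 0.50 (adjusted p = 0.2745), which was not called, and KO against KI -0.78 (adjusted p = 0.009306). *Ggt7* also shares exon bases with *Acss2* (6.04%), so that reads there cannot be told apart.

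*Oplah* (chr15:76296601-76328015, minus strand), the gene of 5-oxoprolinase, was counted 824, 583, 735 and 840 times in KO, 1194, 1404 and 1790 times in WT and 1108, 1395, 1482 and 1481 times in KI libraries. In CPM the KO libraries lay at 23.1, 17.3, 22.0 and 19.3, the KI libraries at 31.0, 38.4, 38.7 and 45.0 and the WT libraries at 53.2, 56.6 and 63.4. These ranges formed 3 separate steps, KO below KI below WT. The log2 fold change was -1.52 (SE 0.14, adjusted p = 8.328e-06) in KO against WT, -0.59 (SE 0.15, adjusted p = 0.006572) in KI against WT and -0.90 (adjusted p = 2.638e-05) in KO against KI. The call in KI against WT was lost with library totals in place of TMM scaling (-0.28, adjusted p = 0.2426). In KO against WT *Chac1* changed in the opposite direction to *Oplah*, and *Chac2*, the more abundant of the CHAC genes per length, in the same direction. *Oplah* overlaps with *Exosc4* (6.6% of its exon bases) and *Smpd5* (5.07%) on the opposite strand, and neither was called in KO against WT.

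Compared per kilobase of exon, the level of *Gclc* was highest in all groups, with means of 193.8 CPM per kb in the KO, 219 in the WT and 247 in the KI cells. *Chac2* came next at 40.8, 106 and 58.0, and then *Gsr* at 30.5, 28.3 and 37.7 CPM per kb. The order below these differed. In the KO cells *Gclm* (16.4) and *Gss* (14.2), whose ranges overlapped, were followed by *Chac1* (9.40) and then by *Ggt6* (3.52) and *Oplah* (3.50), which also overlapped. In the WT cells *Oplah* (9.89), *Gclm* (9.19) and *Ggt6* (8.39) overlapped as neighbours in the order and were followed by *Gss* (4.95) and *Chac1* (2.33). In the KI cells *Gclm* (13.9) was followed by *Oplah* (6.56) and *Gss* (6.42), which overlapped, and by *Ggt6* (2.19) and *Chac1* (1.79), which overlapped too. *Ggt1* and *Ggt7* were last in every group, between 0.0907 CPM per kb for *Ggt1* in the KO cells and 1.08 for *Ggt7* in the KI cells.

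The scaling between libraries bears on these differences. A single newly assembled entry of the table took 11.3 to 17.1% of all counts in the WT libraries, against 4.32 to 6.44% in the KO and 4.82 to 9.12% in the KI libraries, and the TMM factors of the WT libraries were 0.744, 0.816 and 0.947. When libraries were scaled by their totals alone, all genes had a median log2 fold change of 0.38 in KO against WT and of 0.31 in KI against WT, and 72.8% and 76.3% of the called genes were higher in the edited cells, against 48.5% and 50.2% with TMM. *Gclc* then had a log2 fold change of 0.21 in KO against WT, a change of sign, though still below the median of all genes. The call of *Oplah* in KI against WT was lost at -0.28, and *Gclc* (0.49) and *Gss* (0.73) were called. The directions of the other 9 genes in KO against WT, and of all 10 in KI against WT, were the same under both scalings.

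**Figure D4:**
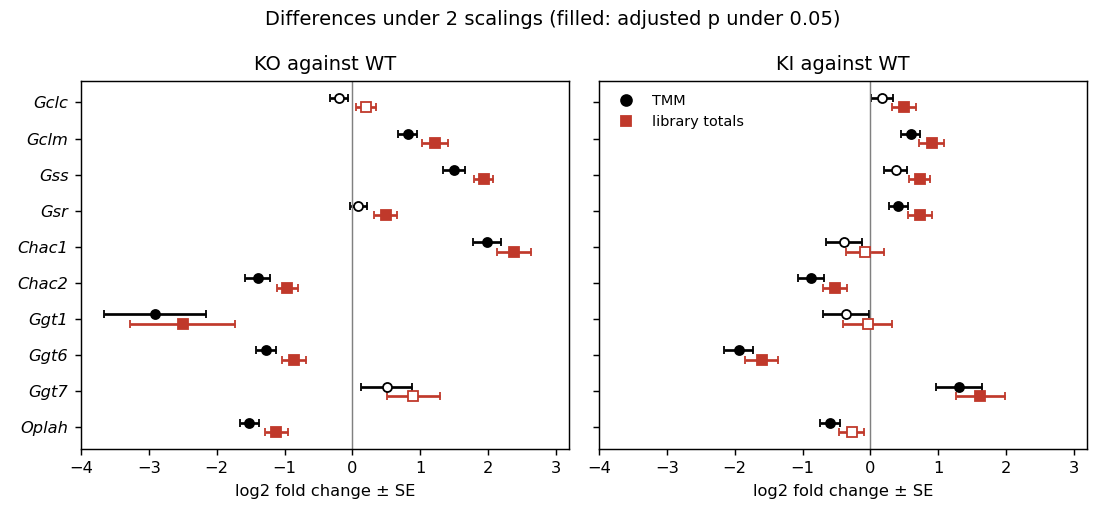
Log2 fold changes (horizontal axes) with SE bars of the 10 genes with TMM scaling (black circles) and with library totals (red squares) in KO against WT and KI against WT; filled symbols had an adjusted p under 0.05. The values with library totals lie to the right of those with TMM for every gene, and *Gclc* in KO against WT moves from -0.20 to 0.21.

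The other genes of glutathione metabolism were taken from lists chosen by function. Of 8 other enzymes of the cycle, 5 were tested in KO against WT. *Cndp2*, a peptidase of the cytosol that splits cysteinylglycine, was called lower (log2 fold change -0.79, adjusted p = 0.0001832), and the other 4 were not called, among them *Ggct*, the gene of gamma-glutamylcyclotransferase (0.11, adjusted p = 0.7151). None of the 5 was called in KI against WT. *Ggt5* had 0 counts in all 11 libraries. Of 11 tested genes that supply cysteine, 4 were called higher and 3 lower in KO against WT, where 55.1% of all genes were called. *Cth*, the cystathionine gamma-lyase that releases cysteine from cystathionine, had 2706, 2324, 1974 and 2826 counts in the KO and 307, 365 and 246 in the WT libraries. This was a log2 fold change of 2.42 (adjusted p = 3.533e-06). *Slc1a4*, an exchanger of neutral amino acids, rose by 2.35. *Mat1a*, the methionine adenosyltransferase of adult hepatocytes, fell by 3.84. *Slc7a11* and *Slc3a2*, the chains of the cystine importer, had log2 fold changes of 0.09 and -0.10 and were not called. For KI against WT the same list gave 3 higher, 3 lower and 5 not called, where 42.3% of all genes were called, with 0.81 for *Cth*.

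The transporters, the glutathione-using enzymes and the NADPH-supplying enzymes are read beside the 55.1% of all genes called in KO against WT (26.7% higher, 28.4% lower) and the 42.3% called in KI against WT, and none of these 3 lists had a larger share called in KO against WT. Among 7 transporters of glutathione and its conjugates, *Abcc5* was called higher (0.97) and *Abcc4* (-0.96) and *Abcc3* (-0.73) lower in KO against WT. These 3 were called in the same directions in KI against WT (0.42, -0.88 and -0.73). Of 10 tested enzymes that use glutathione, 1 was higher and 4 were lower in the KO cells. In KI against WT, 2 of 11 tested were called higher and 6 lower, more than the 42.3% of all genes. *Gpx3*, a secreted glutathione peroxidase, had 10, 26, 26 and 63 counts in the KO, 2109, 1926 and 2726 in the WT and 175, 218, 151 and 160 in the KI libraries, so it was lower in both edited lines. Its log2 fold change was -6.75 (adjusted p = 1.439e-07) in KO against WT and -4.18 (adjusted p = 1.927e-08) in KI against WT. *Glrx*, a glutaredoxin, had 575 to 930 CPM in the KO, 1622 to 2779 in the WT and 854 to 1270 in the KI libraries, without overlap between the WT and either edited line. It was called lower in KO against WT (-1.74, adjusted p = 0.0001041) and in KI against WT (-1.23, adjusted p = 0.0005781). *Gpx4*, which reduces lipid peroxides in membranes, was called lower in KO against WT (-0.76, adjusted p = 0.008852), with overlap of the groups, and *Gpx1* higher (0.53). Of 7 enzymes that supply NADPH to glutathione reductase, *Pgd* of the pentose phosphate pathway was called higher (1.11) and *Idh1* lower (-1.63), and the other 5 were not called.

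*Chac1* is known as a target of ATF4 and *Gclc*, *Gclm* and *Gsr* as targets of NRF2, so further genes of these branches were set beside them. Of 8 genes of the ATF4 branch, 6 were called higher in KO against WT, 1 lower and 1 not, beside 26.7% of all genes called higher and 28.4% lower, and the median log2 fold change was 0.98, beside -0.03 over all genes. *Nupr1* (2.00), *Trib3* (1.94) and *Asns*, the asparagine synthetase (1.92), were close to the 1.98 of *Chac1*. *Atf3* was lower (-0.57), and *Atf4* itself was not called (0.33, adjusted p = 0.05467). In KI against WT, 2 were higher, 2 lower and 4 not called, where 42.3% of all genes were called, with -1.13 for *Trib3* and 0.82 for *Nupr1*, and the median was -0.23, beside -0.02 over all genes. In KO against KI 7 of the 8 were called higher, with 3.09 for *Trib3*, beside 27% of all genes, and the median was 1.20, beside 0.00084.

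Of 8 genes of the NRF2 branch, 5 were called higher and 2 lower in KO against WT, beside the same 26.7% and 28.4% of all genes. The median log2 fold change was 0.60, beside -0.03 over all genes. *Nqo1*, a quinone reductase, was counted 42, 23, 41 and 24 times in KO libraries and 0 times in the 3 WT libraries, which makes it at least 7.57-fold higher, computed against a floor of 3 counts per library. *Srxn1*, the sulfiredoxin gene (0.92), *Keap1* (0.69), *Nfe2l2*, which encodes NRF2 (0.64), and *Txnrd1* (0.56) were also higher. *Hmox1*, the heme oxygenase gene, fell by 2.78 and *Osgin1* by 0.70. *Slc7a11*, which stands in this list too, was not called. Of the 7 tested in KI against WT, 2 were called higher and 2 lower, beside 21.2% and 21% of all genes. The median there was -0.08, beside -0.02 over all genes. In KO against KI, 3 of the 8 were called higher and 2 lower, beside 27% of all genes in each direction. The median was 0.20, beside 0.00084 over all genes.

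**Figure D5:**
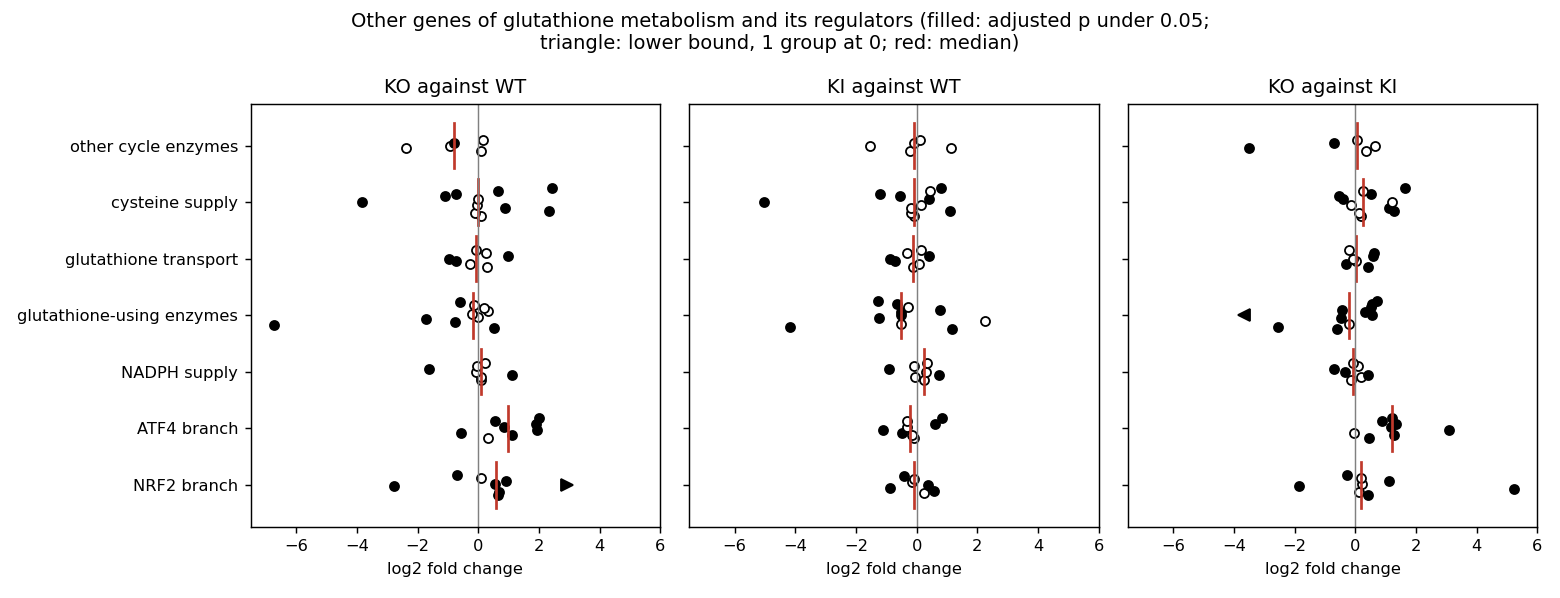
Log2 fold changes (horizontal axes) of the tested genes of 7 lists (vertical axis) for the 3 comparisons of KO, WT and KI; each circle is 1 gene, filled where the adjusted p was under 0.05, a triangle is a lower bound for a called gene with 0 counts in all libraries of 1 group, and the red bars are list medians. The ATF4 branch has medians of 0.98, -0.23 and 1.20 in the 3 panels, and the circle farthest to the left in KO against WT is *Gpx3*.

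As a description over the 11 libraries, which fall into the 3 groups and share their scaling, the genes whose log2 CPM followed *Chac1* most closely were *AA986860*, *Srxn1* and *Als2cl* (Pearson's r 0.99, 0.989 and 0.988 among 10045 genes). *Chac2* was followed by *Mpc1*, *Rpl22l1* and *Ube2b* (0.994, 0.993 and 0.992). For *Oplah* these were *Ubtd1*, *Ormdl3* and *Fam20a* (0.986, 0.981 and 0.98), for *Ggt1* *Lyrm9*, *Rnf217* and *Zswim6* (0.95, 0.949 and 0.92) and for *Gclc* *Cyld*, *Ccdc186* and *Adam9* (0.946, 0.944 and 0.932).

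Markers of liver cell types also differed between the groups. Of 10 hepatocyte markers, 9 were found in the table, and their summed level was 5007 to 6159 CPM in the KO, 1536 to 2232 in the WT and 1616 to 2209 in the KI libraries. *Alb*, the albumin gene, was the largest part of the sum in the KO libraries (3588 to 4766 CPM) and had 373 to 739 CPM in the WT and 160 to 302 in the KI libraries. Of the 8 hepatocyte markers tested in KO against WT, 6 were called higher and 2 lower (26.7% and 28.4% of all genes). The largest rise was that of *Apoa1*, an apolipoprotein gene (3.82), and the genes called lower were *Ttr*, the transthyretin gene (-0.93), and *Serpina1a* (-3.78). *Cyp2e1*, a cytochrome P450 of mature hepatocytes, had at most 3 counts in every library. The 6 biliary markers summed to 1373 to 1530 CPM in the KO, 3048 to 4416 in the WT and 2643 to 3128 in the KI libraries. *Spp1* was the most abundant of them in the WT (1945 to 3287 CPM) and KI libraries (1850 to 2114 CPM) and had 211 to 282 CPM in the KO libraries. There *Krt19*, a keratin gene, was more abundant at 1035 to 1175 CPM, beside 653 to 862 in the WT, and was called higher in KO against WT (0.49), against the direction of the sum. Without *Spp1* the sums were 1120 to 1247 CPM in the KO, 900 to 1129 in the WT and 748 to 1022 in the KI libraries, so that the lower sum of the KO libraries rests on this gene. Of the 5 biliary markers tested in KO against WT, 1 was called higher and 4 lower, again beside 26.7% and 28.4% of all genes. The largest change was in *Krt7*, another keratin gene (-3.40). *Epcam* had at most 3 counts everywhere. Markers of macrophages summed to 1.32 to 2.21 CPM in the KO, 6.73 to 9.20 in the WT and 2.52 to 5.66 in the KI libraries. *Cd68* was the largest part in the KO and WT libraries, whereas in the KI libraries *Cd68* (1.43 to 2.89 CPM) and *Ptprc* (1.09 to 2.77 CPM) were close, and the defining *Adgre1* and *Clec4f* had at most 3 counts. The 6 mesenchymal markers summed to at most 1.15 CPM and the 4 endothelial markers to at most 0.425. The part of these marker shifts in the differences of the 10 genes was not tested.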

How the data were processed

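RNA-seq libraries of AML12 cells (4 KO, 3 WT and 4 KI) were analysed as deposited by the authors, who gave raw counts per gene, without normalization, in 1 table. The submitters' processing notes name HISAT2, TopHat2, Bowtie2 and StringTie without their roles. The genome build, the counting tool and whether strand was used are not given in the sources used here. Of 26472 lines, 10 without counts were left out. The other 26462 (23502 annotated, 2960 newly assembled) were summed by gene name, 1131 names having several entries. The 11 columns of FPKM and 9 of the authors' own comparisons (fold changes, p-values and calls) were not used.

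Genes were filtered with filterByExpr, scaled by TMM and tested with edgeR 4.0.16 (quasi-likelihood, robust) in R 4.3.3. Each main fit held only the libraries of the 2 groups compared and left edgeR's prior count at its default. A prior count of 2 entered only the log2 CPM values, for correlations and for limma. The SE is the log2 fold change divided by the square root of F. Displayed CPM used TMM factors over all 11 libraries. In tests on simulated data with 13194 genes for KO against WT, 98 genes were changed by 1 on the log2 scale and 99 by 2. Of these, 93.9% and 100% were found, with 10 false calls. The simulation used the same dispersion for every gene and the same composition for every library apart from the changed genes. It therefore does not cover the differences in scaling and spread of the real libraries. The floor of detection was 3 counts, at most 1.01e-05% of a library, and covers counting error only. Libraries of a group differed by more than counting noise (chi-square per degree of freedom 17.2 to 169). WT library 8 stood apart most, with correlations of log2 CPM of 0.952 with WT 5-6 and 0.9646 with WT 7. All other pairs within a group had 0.9772 or more. Exon lengths and gene positions came from GENCODE M21 (GRCm38), upstream sequences from RefSeq (GRCm38.p6), and outliers from Dixon's ratio in groups of 4. Alternatives were DESeq2 1.42.0, limma 3.58.1, library totals, no filter, all 3 groups in 1 fit, a replicate block, annotated genes only, single entries and leaving out each library.

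The 10 genes were all named. Of the lists, the gene with the largest change among the called in KO against WT was named, with others, called or not, picked once their values had been seen, and for 5 of the 10 genes the 3 most correlated annotated genes with a mean of at least 2 log2 CPM. The genes, lists and motifs were chosen with earlier results of these data known. Transferrin was listed among the hepatocyte markers as *Tf* rather than by its mouse symbol *Trf*, so it was not found and is not in their counts or sums.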

Additional observations from a re-analysis of the deposited data

Results flagged for a closer look

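Dixon's test in the groups of 4 libraries, run on 26 groups of values of which about 1.3 would pass by chance, marked 3 values. *Gclc* in KI library 8 was 720 CPM, beside 984 to 1018 in the other KI libraries (gap of 0.885 of the range). The *Gclc* to *Gclm* ratio per length in the same library was 14.2, beside 18.6 to 19.6 (0.83), and rests on the same *Gclc* counts. *Gsr* in KO library 5 was 72.9 CPM, beside 86.6 to 89.2 in the other KO libraries (0.84).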

How the results depend on the processing

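In KO against WT, 7 to 8 of the 10 genes were called under every alternative setting and 7 in each fit without 1 library. *Gclc* reversed with library totals (0.21, adjusted p = 0.2503) and was called with DESeq2 (-0.22, adjusted p = 0.04418), and *Gsr* was called with library totals (0.49). In KI against WT, 5 to 7 of the 10 were called under the other settings and 5 to 6 without 1 library. *Gss* was called with all 3 groups in 1 fit, with library totals and without WT 5-6. In KO against KI, 8 to 10 of the 10 were called either way. *Gclm* was lost with all 3 groups in 1 fit, and *Gclc* (adjusted p = 0.05104) and *Gsr* (0.07871) with library totals. Over all genes, leaving out 1 library gave 6161 to 8449 calls in KO against WT, 4276 to 6969 in KI against WT and 6515 to 7230 in KO against KI. The highest numbers in the comparisons with WT, 8449 and 6969, came from the fits without WT library 8. No total of calls moved by more than 1.5 times, but with library totals the calls divided into 5675 higher and 2124 lower in KO against WT (3568 and 3796 with TMM) and into 4620 and 1438 in KI against WT (2874 and 2848). Depth limits *Ggt1* most, with at most 23 counts in a KO library.

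The *Gclc* to *Gclm* ratio on the log2 scale stayed between -1.09 and -0.97 in KO against WT, -0.51 and -0.34 in KI against WT and -0.68 and -0.53 in KO against KI when each library was left out.

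With the replicate block, 8183 genes were called in KO against WT, 4891 in KI against WT and 6453 in KO against KI. The block lost *Gsr* in KI against WT (adjusted p = 0.07424) and *Gclm* in KO against KI (0.05422) and changed no other call of the 10 genes. The correlations of deviations between same-numbered libraries were mixed. Between KO and WT they were 0.615 (number 8), 0.101 (number 7), 0.566 (KO 5 with WT 5-6) and -0.163 (KO 6 with WT 5-6). They ranged from -0.461 to 0.242 between KI and WT and from -0.374 to 0.0632 between KO and KI, where 0 of 4 KO and 0 of 4 KI libraries correlated best with their own number. Since not every pair passed 0.1 in any comparison, the numbers were not used as pairs.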
